A study of Mus musculus with 8 samples.

Results

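The 10 endothelial genes described here mark the lining of kidney blood vessels and were measured in whole kidneys of mice with and without *c-Maf*. They are *Pecam1*, *Kdr*, *Cdh5*, *Emcn*, *Tek*, *Egfl7*, *Flt1*, *Plvap*, *Ehd3*, and *Sema3g*. They were chosen by name as endothelial markers, and each has 1 of the 55367 gene names in the deposited counts. The filter on low counts kept 20149 genes, all 10 among them. RNA-Seq had been performed on 4 *c-Maf* ΔTAM mice (labelled Maf conditional KO) and 4 *c-Maf fl/fl* mice (labelled Maf flox/flox), all C57BL/6J and 8 weeks old by the labels. Both genotypes carry floxed *c-Maf* and both had received tamoxifen (TAM), whereas the *CAG-Cre-ER* TM transgene is present only in *c-Maf* ΔTAM mice. They are called knockout and control mice from here on. The CAG promoter is active in most cell types, so recombination was not limited to the tubules, and endothelial cells, macrophages, and organs outside the kidney could also have lost *c-Maf*.

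Endothelial cells line every vessel, and those of the kidney differ by segment: glomerular capillaries filter plasma through open fenestrae, peritubular capillaries take up what the tubules reabsorb, and arterioles set the flow. Their survival and fenestration depend on vascular endothelial growth factor A (VEGF-A), which in the kidney comes mainly from podocytes and tubular cells and acts on the endothelial receptor encoded by *Kdr*. The angiopoietins and the receptor encoded by *Tek* form another signaling pathway that keeps the lining quiescent, and Notch signaling separates arterial from capillary cells.

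Totals were 22990257, 18896014, 17188052, and 16649129 counts in knockout mice 1 to 4 and 18696580, 20890209, 20371115, and 19897769 in control mice 1 to 4. *Maf*, the targeted gene, had 178, 671, 533, and 187 counts in the knockout mice and 7746, 7580, 6018, and 5988 counts in the control mice, so each library matched its genotype label. The log2 fold change of *Maf* was −4.05 (standard error 0.512, adjusted *P* = 0.0115 in edgeR's quasi-likelihood test). Mitochondrial genes took 32.3% of the counts in knockout mouse 1, 25.5% in control mouse 4, and between 17.1% and 22.1% in the other 6. The labels do not give the sex. *Xist*, which is transcribed from the inactive X chromosome of females, had 2 counts in knockout mouse 1, 6 in control mouse 3, and 22 in control mouse 4, against 17618 to 22387 in the other 5 mice. Knockout mouse 1 therefore differed from the other 3 of its genotype both in *Xist* and in its mitochondrial share.

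The tissue was labelled whole kidney, although the extraction protocol names liver. The kidney genes *Lrp2*, *Slc34a1*, and *Umod* were abundant, with 7580, 4098, and 2829 CPM (counts normalized to library size with the trimmed mean of M values, TMM) on average in control mice. *Alb*, the main transcript of hepatocytes, was at 5.65 ± 3.06 CPM (SD, n = 4), and the hepatocyte genes *Serpina1e* and *Cps1* had 19 and 6 counts over all 8 mice. The 4 hepatocyte genes tested summed to 27.1 to 54.9 CPM per mouse, with *Fga* the most abundant.

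Of the 10 endothelial genes, *Kdr* alone passed edgeR's quasi-likelihood test (adjusted *P* under 0.05 by the method of Benjamini and Hochberg), and it was lower in knockout mice. Over all genes tested, 2.16% were called in either direction and 1.58% were called lower. The estimate was negative for 8 of the 10 genes and positive for *Emcn* and *Tek*, compared with 9983 negative estimates among the 20149 genes. The median log2 fold change of the 10 genes was −0.14 in knockout relative to control mice, against 0.0027 over all genes tested, and without knockout mouse 1 it was −0.066. Their summed level was 638, 731, 696, and 733 CPM in knockout mice 1 to 4 and 805, 749, 818, and 733 CPM in control mice 1 to 4, so the genotypes overlapped only at mouse 4 of each. In RNA from whole tissue, fewer endothelial cells and less of a transcript per cell cannot be told apart.

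**Figure D1:**
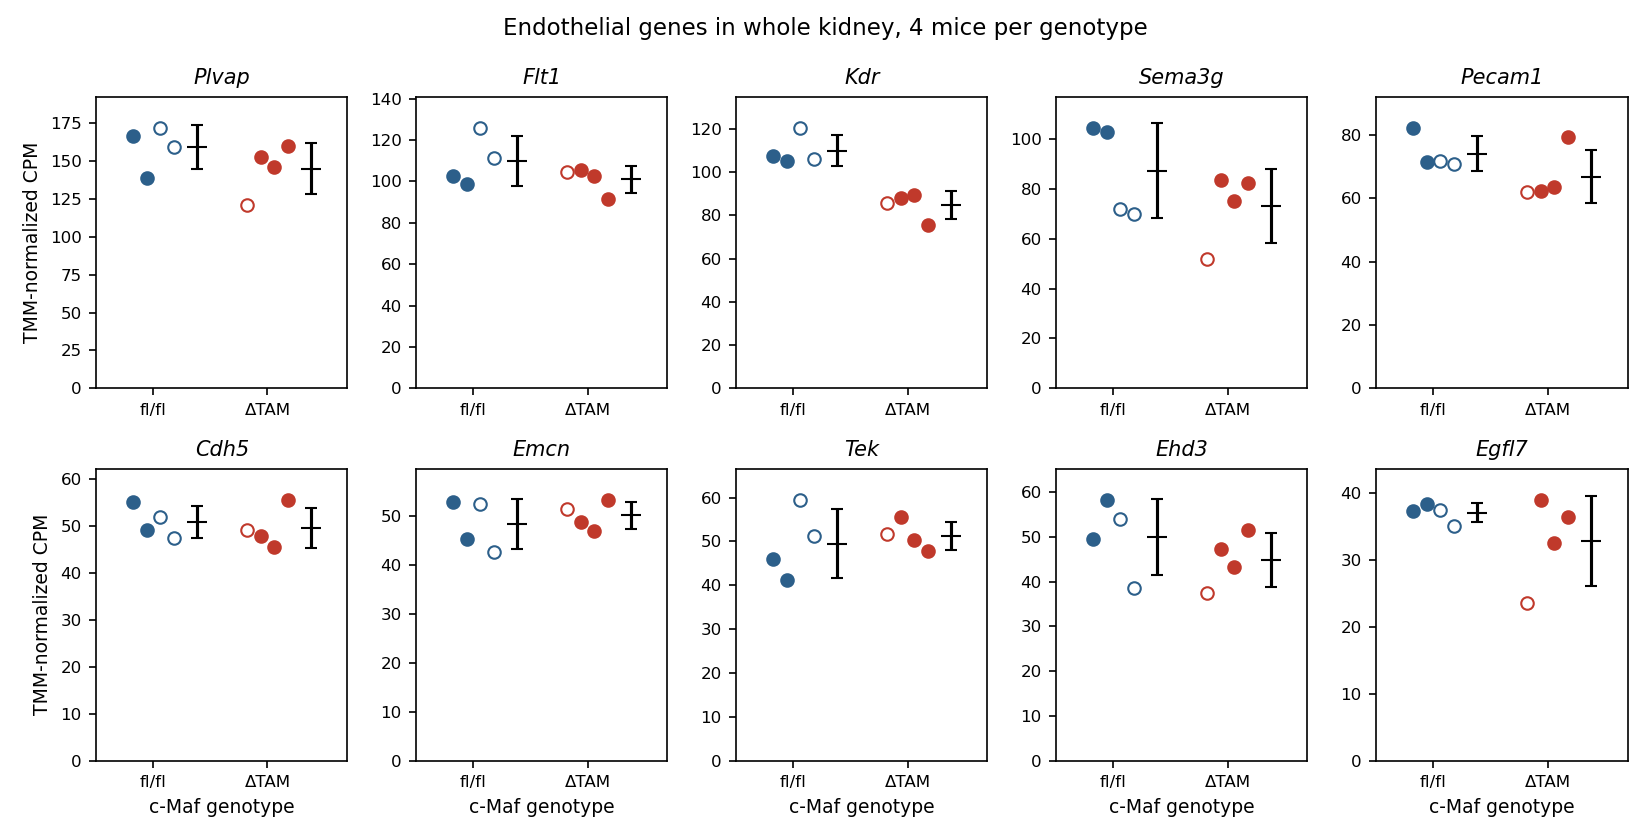
TMM-normalized CPM (y axis, from 0) of the 10 endothelial genes in control (blue) and knockout (red) mice, 1 point per mouse, with open points for the 3 mice with few *Xist* counts and black bars for the mean ± SD of 4 mice. For *Kdr*, all red points lie below all blue points, and for *Sema3g* the open points lie below the filled points of the same genotype.

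*Kdr* encodes VEGF receptor 2, the main signaling receptor for VEGF-A, and lies on the minus strand of chromosome 5 (chr5:75932827-75978458, GRCm38). Its level was 85.8, 88.1, 89.5, and 75.5 CPM in knockout mice 1 to 4 and 107, 105, 120.5, and 106 CPM in control mice 1 to 4. Every knockout mouse was below every control mouse, a separation in this direction that 5.62% of the genes tested also showed and that none of the other 9 endothelial genes did. The means were 84.7 ± 6.32 and 109.8 ± 7.17 CPM (SD, n = 4), a log2 fold change of −0.37 (standard error 0.0851) with a 95% confidence interval of −0.56 to −0.19. The adjusted *P* in edgeR's quasi-likelihood test was 0.045, close to the threshold. It passed the threshold in none of the fits that left out 1 of the 8 mice, where the adjusted *P* lay between 0.0552 (without knockout mouse 1) and 0.138 (without control mouse 3), while the log2 fold change stayed between −0.40 and −0.32. *Kdr* was lower within both *Xist* groups: it averaged 84.4 CPM in the 3 knockout mice and 106 CPM in the 2 control mice with high *Xist*, and among the mice with low *Xist* it was 85.8 CPM in the single knockout mouse and 113 CPM on average in the 2 control mice. With *Xist* as a covariate, its log2 fold change was −0.36 (edgeR adjusted *P* = 0.00834), and over the 11 alternative settings, this one included, the adjusted *P* ran from 0.00436 to 0.193.

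*Flt1* encodes VEGF receptor 1, which binds VEGF-A tightly, signals weakly, and exists in a soluble form. It was at 105, 105, 103, and 91.5 CPM in knockout mice 1 to 4 and at 103, 98.9, 126, and 111 CPM in control mice 1 to 4. The genotypes overlapped, and the log2 fold change of −0.12 had a 95% confidence interval of −0.32 to 0.086, with a lower limit that corresponds to −20.2%. It was −0.045 without control mouse 3 and −0.016 among the 5 mice with high *Xist*. The ratio of *Kdr* to *Flt1* within a library does not depend on how libraries are scaled. Per kb of exon it was 1.23, 1.25, 1.30, and 1.23 in knockout mice 1 to 4 and 1.56, 1.59, 1.43, and 1.43 in control mice 1 to 4. The ratio was lower in all 4 knockout mice than in any control mouse, and so was that of *Kdr* to *Tek* (0.823 to 0.930 against 1.06 to 1.33). The ratios of *Kdr* to *Pecam1* (0.656 to 0.974 against 0.898 to 1.15) and to *Cdh5* (0.632 to 0.914 against 0.905 to 1.08) overlapped between genotypes, as did that of *Kdr* to the other 9 genes together (0.0494 to 0.0707 against 0.0666 to 0.0755). *Flt1* and *Tek* were also the members that varied most closely with *Kdr* within genotypes (Pearson *r* 0.87 and 0.70 over 8 mice, as a description).

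Among the 9 VEGF ligand and receptor genes tested, edgeR's quasi-likelihood test called 2 lower, *Kdr* and its ligand gene *Vegfa*, and 0 higher, beside 1.58% of all genes tested that were called lower. DESeq2 called the same 2 lower and *Vegfd* higher, beside 2.81% and 1.58% of all genes tested, and the exact test of edgeR and limma-trend called 0. *Vegfa* was at 143, 170.3, 179, and 160.1 CPM in knockout mice 1 to 4 and at 196, 221, 245, and 250.05 CPM in control mice 1 to 4. All values of knockout mice lay below those of control mice, as they did for 5.62% of all genes tested. Its log2 fold change was −0.48 (95% confidence interval −0.71 to −0.26), with an edgeR adjusted *P* of 0.0339. Like that of *Kdr*, this call did not hold without most single mice: it held in 1 of the 8 fits without 1 mouse, the one without control mouse 1 (adjusted *P* = 0.0212), and the adjusted *P* reached 0.112 without control mouse 3. The log2 fold change was −0.30 among the 5 mice with high *Xist*, where the adjusted *P* was 0.0764, within a range of 0.00174 to 0.121 over the 11 alternative settings.

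The other ligands did not pass edgeR's quasi-likelihood test. *Vegfd*, which acts mainly on lymphatic vessels, had 8.80 ± 1.15 CPM in knockout and 5.57 ± 1.40 CPM in control mice (SD, n = 4), with an adjusted *P* of 0.112 and knockout mouse 3 (7.43 CPM) just below control mouse 1 (7.55 CPM). *Vegfb* (log2 fold change 0.067) and *Vegfc* (−0.30) had intervals that included 0, and among the 5 mice with high *Xist* they were at 0.19 and 0.087, so the sign of *Vegfc* changed. The log2 fold change of *Vegfd* was 0.66 with all mice and 0.39 in those 5 mice (edgeR adjusted *P* = 0.402). The placental growth factor gene *Pgf*, whose product binds the receptor of *Flt1*, had 37 counts over all mice and was not tested. The lymphatic receptor gene *Flt4* had a log2 fold change of −0.23 (95% confidence interval −0.46 to 0.0063), and the coreceptor genes *Nrp1* and *Nrp2* were at −0.017 (−0.19 to 0.16) and −0.055 (−0.23 to 0.12).

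*Tek* encodes the angiopoietin receptor Tie2. Its level ranged from 47.9 to 55.6 CPM in knockout and from 41.2 to 59.4 CPM in control mice. The log2 fold change of 0.054 had a 95% confidence interval of −0.19 to 0.29, and it changed sign (−0.025) without control mouse 2. It was 0.16 without control mouse 3 and 0.23 among the 5 mice with high *Xist* (edgeR adjusted *P* = 0.264). None of the 6 genes of the angiopoietin and Tie list was called by edgeR, DESeq2, or limma-trend, and 0 had an unadjusted *P* under 0.05, a threshold that 7.44% of all genes tested passed downward and 6.58% upward. The list included the ligand genes *Angpt1* (log2 fold change −0.063), *Angpt2* (−0.071), and *Angpt4* (−0.11), the second receptor gene *Tie1* (−0.16), and *Ptprb* (0.083), a phosphatase gene whose product holds Tie2 signaling down. Among the 5 mice with high *Xist*, *Angpt1* was at −0.34, *Angpt2* at −0.068, and *Angpt4* at −0.39 (edgeR adjusted *P* = 0.183, 0.945, and 0.832). In the fit with *Xist*, *Angpt1* was called higher with high *Xist*, by 0.54 on the log2 scale (edgeR adjusted *P* = 0.0194).

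*Pecam1* and *Cdh5* encode adhesion proteins of endothelial junctions, PECAM-1 (CD31) and VE-cadherin, and are the usual markers of the whole endothelium. *Cdh5* ranged from 45.6 to 55.6 CPM in knockout and from 47.6 to 55.2 CPM in control mice. Its log2 fold change of −0.039 had a 95% confidence interval of −0.23 to 0.15, and its sign changed with upper-quartile scaling (0.0045), with quantile normalization and limma-trend together (0.014), and without control mouse 1 (0.00066). *Pecam1* was at 62.1, 62.4, 63.8, and 79.4 CPM in knockout mice 1 to 4 and at 82.4, 71.6, 72.0, and 70.8 CPM in control mice 1 to 4. In each genotype 1 mouse stood above 3 that nearly coincided, so the genotypes overlapped through knockout mouse 4 alone, and the log2 fold change of −0.15 had a 95% confidence interval of −0.36 to 0.066. It was −0.24 without knockout mouse 4 (edgeR adjusted *P* = 0.235) and −0.096 without control mouse 1. *Emcn*, which encodes the sialomucin endomucin of capillaries and veins, ranged from 46.9 to 53.3 CPM in knockout and from 42.6 to 52.8 CPM in control mice (log2 fold change 0.053, 95% confidence interval −0.15 to 0.25). The estimate for *Emcn* was 0.0015 without control mouse 4, 0.098 without control mouse 1, and 0.016 among the 5 mice with high *Xist*. The lower limits of the intervals corresponded to −14.7% for *Cdh5*, −9.70% for *Emcn*, and −12.1% for *Tek*.

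*Plvap* encodes the protein of the diaphragms that close endothelial fenestrae and caveolae, and in the kidney it marks peritubular rather than mature glomerular capillaries. It was at 121, 153, 146, and 159.9 CPM in knockout mice 1 to 4 and at 167, 139, 172, and 159.6 CPM in control mice 1 to 4. Knockout mouse 1 was the lowest of the 8. The log2 fold change was −0.14 (95% confidence interval −0.37 to 0.094) with all mice and −0.056 without that mouse, and it was 0.0011 among the 5 mice with high *Xist*. *Egfl7*, which encodes a secreted protein of vessel assembly and hosts a microRNA gene in an intron, was likewise lowest in knockout mouse 1. It had 23.5 CPM there, 32.4 to 38.9 CPM in knockout mice 2 to 4, and 35.0 to 38.3 CPM in control mice. Its log2 fold change was −0.17 with all mice and −0.041 without that mouse. It was −0.27 without knockout mouse 2 and −0.23 without knockout mouse 4. *Egfl7* shares 11.2% of its exonic bases with other annotated genes, most with *Gm20532*, and reads on shared bases were counted for neither gene. The other 9 members share no exonic base. The only other member of the EGFL7 family, *Egfl8*, had a log2 fold change of 0.033, and the median over both was −0.071 with 0 called and 0 at an unadjusted *P* under 0.05. In the fit with *Xist*, *Egfl7* was higher with high *Xist* by 0.30 on the log2 scale and *Plvap* by 0.081, with adjusted *P* values of 0.0963 and 0.673. The part of the mitochondrial share in the low values of that mouse was not tested.

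*Ehd3* encodes a membrane-trafficking ATPase that in the kidney marks glomerular endothelial cells. It ranged from 37.3 to 51.4 CPM in knockout and from 38.5 to 58.2 CPM in control mice, with a log2 fold change of −0.16 (95% confidence interval −0.45 to 0.13). The estimate was −0.077 without knockout mouse 1 or without control mouse 2, and −0.26 without control mouse 4. None of the 6 genes of the glomerular capillary list was called by edgeR, 0 had an unadjusted *P* under 0.05, and their median log2 fold change was 0.21, with *Plat* (0.15), *Nostrin* (0.26), *Tbx3* (0.28), and *Gata5* (0.29) above 0. The glomerular podocyte genes, 7 in all, had a median of 0.028 and 0 calls by edgeR, with 0 at an unadjusted *P* under 0.05, and their summed level was 514 ± 72.7 CPM in knockout and 497 ± 63.4 CPM in control mice (SD, n = 4). The 4 genes of the EHD family had a median of −0.071 and 0 calls by edgeR. At an unadjusted *P* under 0.05, 6.58% of all genes tested were higher, and so was 1 gene of this family. That gene, *Ehd4*, was higher in every knockout mouse (61.3 ± 4.17 against 50.9 ± 5.18 CPM), a separation that 4.17% of genes showed upward, but its adjusted *P* was 0.199 in edgeR's test.

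*Sema3g* encodes a secreted semaphorin that marks arterial endothelial cells. It was at 51.8, 83.7, 75.2, and 82.3 CPM in knockout mice 1 to 4 and at 105, 103, 72.1, and 70.1 CPM in control mice 1 to 4. The values split by *Xist* within each genotype: the 3 mice with few *Xist* counts were the lowest of their genotype. Without *Xist* in the model the log2 fold change was −0.26, and edgeR gave an adjusted *P* of 0.594. It was −0.12 without knockout mouse 1 and −0.16 without control mouse 1. With *Xist* as a covariate, the genotype difference was −0.36 (standard error 0.07) and the adjusted *P* was 0.00384. In that fit, mice with high *Xist* exceeded mice with low *Xist* by 0.57 on the log2 scale (standard error 0.073, edgeR adjusted *P* = 9.21e-05), and *Sema3g* was the only member called for *Xist*, against 5.33% of all genes tested that were called higher with *Xist*. Among the 5 mice with high *Xist* alone, it was 80.4 CPM in knockout and 104 CPM in control mice, a log2 fold change of −0.37 with an adjusted *P* of 0.0188, while 2.22% of genes were called lower in these mice. Among the 3 mice with low *Xist*, the knockout mouse was at 51.8 CPM and the 2 control mice averaged 71.1 CPM. The knockout mice were therefore lower within each *Xist* group, while the genotypes overlapped when all 8 mice were pooled. Because the only knockout mouse with low *Xist* also had the highest mitochondrial share (32.3%), the parts of the 2 in its low value cannot be told apart. Control mouse 4, also with low *Xist*, had the next highest share (25.5%), and control mouse 3 had 18.7%. The part of the mitochondrial share in differences by *Xist*, and in genotype estimates with *Xist* as a covariate, was not tested for any gene.

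With *Xist* as a covariate, 2 of the 10 genes, *Kdr* and *Sema3g*, were called lower and 0 higher, against 4.23% and 2.59% of all genes tested. The other members kept estimates that missed the threshold, from −0.25 for *Egfl7* (adjusted *P* = 0.181) to 0.10 for *Tek* (adjusted *P* = 0.595).

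Markers of other cells moved with the same split. All 7 podocyte genes were called higher with *Xist* in that fit, with a median difference of 0.50 on the log2 scale, *Nphs1* at 0.53 and *Podxl* at 0.24 (edgeR adjusted *P* = 0.000563 and 0.0398). The podocyte genes, of which *Podxl* was the most abundant, summed to 410, 535, 579, and 531 CPM in knockout mice 1 to 4 and to 548, 555, 438, and 445 CPM in control mice 1 to 4. The 3 mice with few *Xist* counts were again the lowest of their genotype. Of the 5 genes of other nephron segments 3 were called higher with *Xist*, *Umod*, *Slc12a1*, and *Slc12a3*, and of the 5 proximal tubule genes 2, *Lrp2* and *Slc5a12*. The pericyte and smooth muscle list had 2 such genes of 10, *Cspg4* and *Ren1*, the hepatocyte list 2 of 4, *Alb* and *Fgb*, and the macrophage and red cell lists 0 of 9 and 0 of 6 by edgeR. Of the 101 tested vessel genes outside the 10, 17 were called higher and 2 lower with *Xist*, beside 5.33% and 5.86% of all genes tested. The part of these other cells in the *Xist* difference of *Sema3g* was not tested.

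Of 106 vessel genes outside the 10 that the counts list, 101 were tested, and edgeR called 1, *Vegfa*. At an unadjusted *P* under 0.05, 10 were lower and 7 higher, and the median log2 fold change was −0.055. Over all genes tested, 7.44% were lower and 6.58% higher at that threshold, and 2.16% were called. DESeq2 called 3 lower (*Vegfa*, *Gpihbp1*, and *Sox18*) and 3 higher (*Vegfd*, *Edn1*, and *Sema3c*), beside 2.81% and 1.58% of all genes tested. The exact test of edgeR called *Gpihbp1* lower and *Edn1* and *Sema3c* higher, beside 1.21% and 0.697%, and limma-trend called 0. Of the 21 genes of the pan-endothelial list, 0 were called by edgeR's quasi-likelihood test and 1, *Gpihbp1*, was called lower by DESeq2 and by the exact test, with a median log2 fold change of −0.12 and 2 lower genes at an unadjusted *P* under 0.05, *Rasip1* and *Gpihbp1*. The 21 genes summed to 658 ± 46.8 CPM in knockout and 655 ± 50.3 CPM in control mice (SD, n = 4), and these sums overlapped. *Gpihbp1*, whose product holds lipoprotein lipase on the capillary wall, had 2.75, 4.26, 3.83, and 6.01 CPM in knockout mice 1 to 4 and 7.50, 8.85, 6.50, and 6.92 CPM in control mice 1 to 4, a log2 fold change of −0.82 with an adjusted *P* of 0.091. In the same list, the endoglin gene *Eng* had a log2 fold change of 0.065 and the endothelial nitric oxide synthase gene *Nos3* one of −0.12. The 5 lymphatic genes tested had a median of 0.12, and the 6 genes of veins and vasa recta a median of −0.034, with 0 called in either list and 0 and 1 at an unadjusted *P* under 0.05. *Ackr1*, a marker of venules, had 0 counts in every mouse and was not tested.

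**Figure D2:**
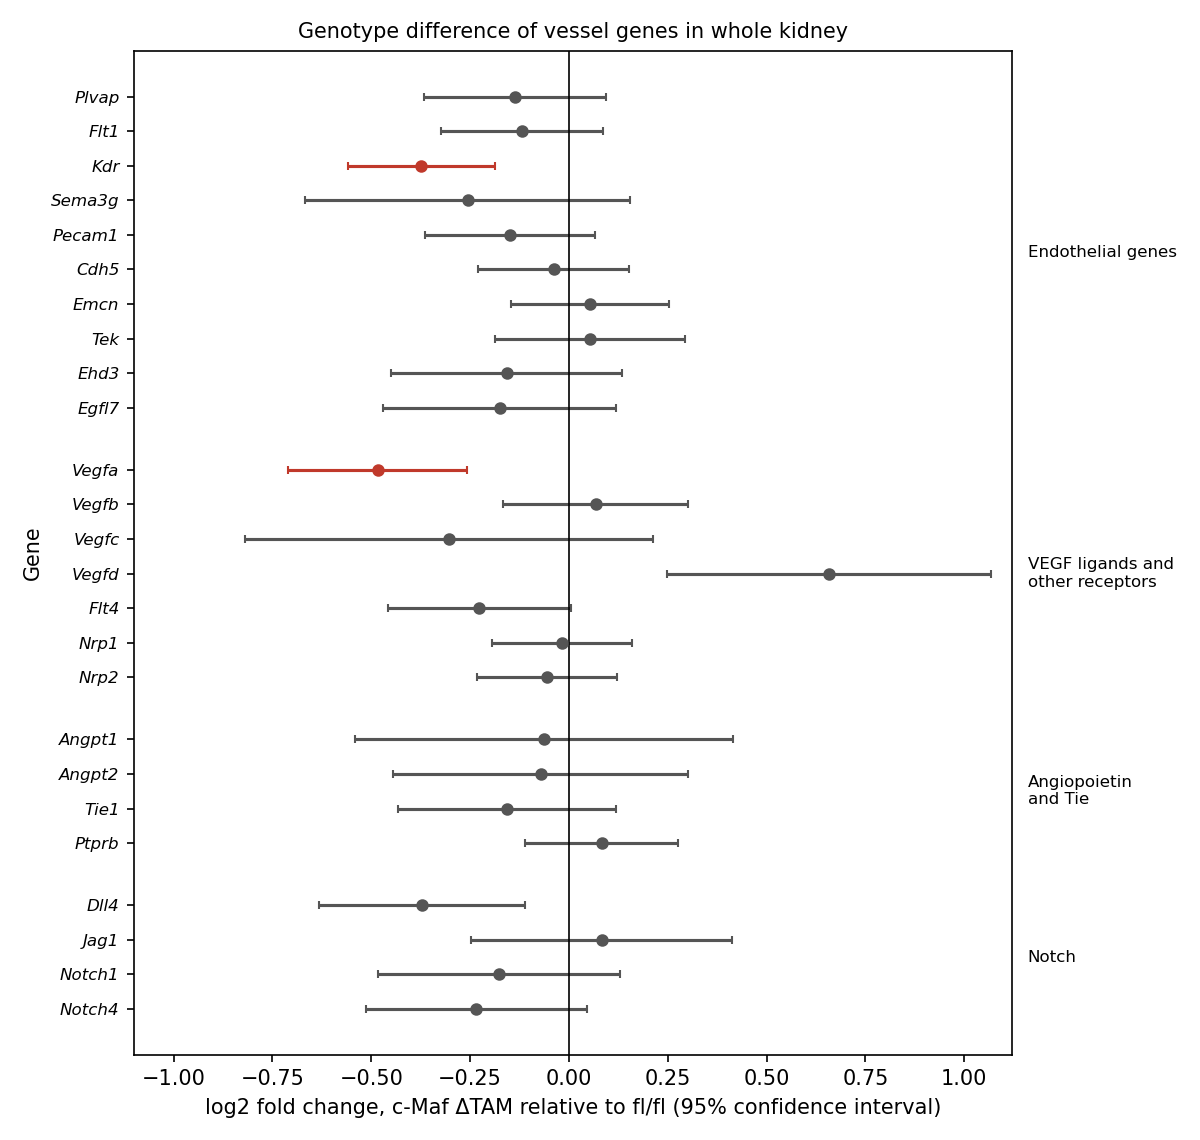
log2 fold change (x axis) of knockout relative to control mice, 4 mice each, for the 10 endothelial genes and for genes of the VEGF, angiopoietin, and Notch pathways, with bars for the 95% confidence interval from edgeR. The genes called at an adjusted *P* under 0.05, *Kdr* and *Vegfa*, are in red, and the intervals of the other 9 endothelial genes include 0.

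The arterial list (11 genes) had a median log2 fold change of −0.22 and no call by edgeR without *Xist* in the model, with 1 lower gene (*Dll4*) and 1 higher gene (*Cxcl12*) at an unadjusted *P* under 0.05. *Dll4*, which encodes a Notch ligand of arterial and sprouting cells, was at 13.1 ± 1.90 CPM in knockout and 16.9 ± 0.509 CPM in control mice (SD, n = 4), with no overlap and an adjusted *P* of 0.168. Its log2 fold change was −0.37, and 5.62% of all genes tested also separated downward without overlap. Of the 8 Notch genes of vessels, 0 were called and 1, *Dll4*, was lower at an unadjusted *P* under 0.05. The median of the 8 was −0.066, and the receptor genes *Notch1* (−0.18) and *Notch4* (−0.23) and the ligand genes *Jag1* (0.083) and *Jag2* (0.17) had intervals that included 0. The chemokine gene *Cxcl12*, which tubular and stromal cells also express, was at 214 ± 24.4 CPM in knockout and 161 ± 26.3 CPM in control mice, with an adjusted *P* of 0.132. Among the 15 endothelial transcription factor genes edgeR called 0 and DESeq2 called 1 lower, *Sox18*. Of the 15, 2 were lower at an unadjusted *P* under 0.05 (*Sox18* and *Klf4*), and the median of the 15 was −0.10. Over all genes tested, 7.44% were lower and 6.58% higher at that threshold. Called were 2.16% by edgeR in either direction and 2.81% lower by DESeq2. *Sox18*, a SoxF factor gene of endothelial cells, ranged from 9.72 to 12.7 CPM in knockout and from 13.6 to 16.7 CPM in control mice, without overlap. Its log2 fold change was −0.49, and the edgeR adjusted *P* was 0.0673, while 5.62% of all genes tested separated downward. The ETS factor genes *Erg*, *Fli1*, and *Ets1* had log2 fold changes of −0.18, 0.13, and −0.025.

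In the list of vascular tone and coagulation genes (12 tested, median −0.10), edgeR's quasi-likelihood test called 0, and DESeq2 and the exact test called *Edn1* higher. DESeq2 and the exact test called 1.58% and 0.697% of all genes tested higher. In this list 1 gene was higher and 1 lower at an unadjusted *P* under 0.05, both of endothelin production. Over all genes tested, 6.58% were higher and 7.44% lower at that threshold. *Edn1*, the endothelin-1 gene, was low but higher in every knockout mouse, a separation that 4.17% of all genes tested showed upward. It was at 2.54 ± 0.226 against 1.34 ± 0.300 CPM (SD, n = 4), with a log2 fold change of 0.91 and an edgeR adjusted *P* of 0.0755. *Ece1*, which encodes the enzyme that converts its product, was at 110.2 ± 16.6 against 143 ± 14.1 CPM, with a log2 fold change of −0.38 and an adjusted *P* of 0.159. Of the semaphorin, neuropilin, and plexin list (14 tested, median −0.029), edgeR's quasi-likelihood test called 0, and DESeq2 and the exact test called *Sema3c* higher. In this list 2 genes were higher and 1, *Plxna2*, was lower at an unadjusted *P* under 0.05. The semaphorin genes *Sema3c* and *Sema3d* were higher in every knockout mouse, a separation that 4.17% of all genes tested showed upward. Their log2 fold changes were 0.76 and 0.45, with adjusted *P* values of 0.157 and 0.168 in edgeR's quasi-likelihood test. Unlike *Sema3g*, *Sema3c* was highest in knockout mouse 1 (135 CPM, against at most 80.0 CPM in the other 3 of its genotype). The 5 genes of endothelial activation that were tested had 0 calls and a median of 0.097, that of *Icam1*. At an unadjusted *P* under 0.05, *Vcam1* was higher (log2 fold change 0.44, adjusted *P* = 0.353) and *Esm1* lower (−0.76, adjusted *P* = 0.337). The leukocyte adhesion genes *Sele* and *Selp* had 60 and 23 counts over all mice and were not tested.

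With *Xist* as a covariate, 9 of these 101 vessel genes were called lower and 4 higher, beside 4.23% and 2.59% of all genes tested. The lower genes were *Vegfa*, *Gpihbp1*, *Rasip1*, *Dll4*, *Notch1*, *Sox18*, *Klf4*, *Ece1*, and *Plxna2*, and the higher genes were *Vegfd*, *Cxcl12*, *Edn1*, and *Sema3c*. The adjusted *P* of *Gpihbp1* was 0.00467 and that of *Ece1* was 0.00777, with log2 fold changes of −0.93 and −0.43. For *Sox18* it was 0.0211, for *Vegfd* 0.0417, and for *Dll4* and *Edn1* 0.0452 each. In the 5 mice with high *Xist*, which also entered that fit, edgeR called 2 of these, *Plxna2* lower (adjusted *P* = 0.0104) and *Sema3c* higher (0.0138). Over all 21027 genes tested in these mice, 467 were called lower and 322 higher. The adjusted *P* of *Gpihbp1*, *Ece1*, and *Klf4* lay between 0.0629 and 0.0668, and that of *Vegfa* was 0.0764. For the rest it lay between 0.114 (*Cxcl12*) and 0.402 (*Vegfd*), with *Sox18* at 0.219 and *Dll4* at 0.309.

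Markers of other cells were measured beside the endothelial genes. Over all genes tested, edgeR called 2.16% in either direction and 1.58% lower. At an unadjusted *P* under 0.05, 7.44% were lower and 6.58% higher. The 10 genes of pericytes, mesangium, and smooth muscle had 0 calls, 1 lower at an unadjusted *P* under 0.05, and a median log2 fold change of 0.016, with the most abundant, *Pdgfrb*, at 0.094, and their summed level was 399 CPM on average in both genotypes. The 9 macrophage and leukocyte genes tested also had 0 calls, although 8 of 9 estimates were positive, 2 passed an unadjusted *P* under 0.05, and the median was 0.24. Their summed level was 126, 123, 138, and 127 CPM in knockout mice 1 to 4 and 114, 108, 118, and 106 CPM in control mice 1 to 4, higher in every knockout mouse, with *Csf1r* the most abundant. The part of this difference in the levels of the endothelial genes was not tested. Red cell and platelet genes (6 tested, 0 called, 1 lower at an unadjusted *P* under 0.05) had a median of −0.26, with *Hbb-bs* at 137 ± 25.0 against 157 ± 42.5 CPM (SD, n = 4). In the proximal tubule list 2 of 5 genes were called lower, *Slc34a1* (log2 fold change −1.23, edgeR adjusted *P* = 0.000217) and *Slc5a12* (−1.71, 0.000349), the median of the 5 was −0.20, and they summed to 10651 ± 1598 CPM in knockout and 14245 ± 865 CPM in control mice. The part of the tubular decrease in the level of *Vegfa*, which tubular cells also express, was not tested. None of the 5 genes of other nephron segments and none of the 4 hepatocyte genes tested was called, and 0 and 1 of them had an unadjusted *P* under 0.05. Their medians were 0.041 and −0.23, and *Alb* was called lower with *Xist* as a covariate, by DESeq2, and by the exact test of edgeR. These fits called 4.23%, 2.81%, and 1.21% of all genes tested lower. Apart from *Alb* and the same 2 proximal tubule genes, the lists of other cells had 0 calls by DESeq2, by the exact test, and by limma-trend.

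Levels among the 10 genes can be compared per kb of the exonic length given with the counts. *Plvap* was the highest in every mouse, at 80.1 ± 7.40 CPM per kb in control mice (SD, n = 4), followed by *Sema3g* at 19.3 ± 4.17 CPM per kb, and neither range met that of the gene below it. *Kdr* (12.2), *Cdh5* (12.1), *Pecam1* (11.9), *Tek* (10.5), and *Egfl7* (10.3 CPM per kb) followed, and neighbors among these 5 overlapped. *Egfl7* and *Emcn*, the next, did not overlap. *Emcn* (8.93), *Flt1* (8.13), and *Ehd3* (7.62 CPM per kb) were the lowest, and neighbors among them overlapped. In knockout mice *Plvap* again led, at 72.9 ± 8.49 CPM per kb, and *Kdr* stood at 9.38 ± 0.700 CPM per kb, by the means in place 6 rather than 3. By mouse, *Kdr* was in places 7, 7, 6, and 8 in knockout mice 1 to 4. In control mice 1 to 4 it was in places 5, 4, 3, and 3. These lengths are sums over all annotated exons, so a gene with long alternative exons, such as *Flt1* with 13504 bases, has a lower value per kb than with a shorter length.

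The 10 genes did not vary as a block among mice of one genotype. After centering within genotype, Pearson *r* over the 8 mice was positive for 29 of the 45 pairs, with a median of 0.18. The largest value was that of *Flt1* and *Tek* (0.94), and *Kdr* went with *Flt1* (0.87), while *Kdr* and *Pecam1* had the lowest value (−0.68). These are descriptions of 8 libraries that share depth, scaling, and the *Xist* split. Among 12012 other genes with a mean of at least 5 CPM, the 8 that followed the mean *z* score of the 10 genes most closely over the 8 mice were *Klhl21* (*r* = 0.97), *Isoc1*, *Notch4* (0.96), *Pygo2*, *Ubl3*, *Mmrn2* (0.95), *Med10*, and *Txndc15*. *Notch4* and *Mmrn2* are themselves endothelial genes, a Notch receptor and the matrix glycoprotein multimerin 2. They were chosen as the highest of 12012 values, and nothing further was tested. After centering within genotype, *Isoc1* (0.97) and *Notch4* (0.95) were again among the 8 highest.

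c-Maf is a leucine zipper factor that binds Maf recognition elements (MAREs), so the promoters of the genes were searched for the core of the half-MARE, TGCTGA, on both strands. RefSeq promoters (GRCm38.p6, 250 bases before the start) were matched for *Kdr*, *Emcn*, *Tek*, *Egfl7*, *Flt1*, *Ehd3*, and *Sema3g*, with 3 starts for *Egfl7*, and for *Vegfa* with 2 starts. No entry was matched for *Pecam1*, *Cdh5*, and *Plvap*. The core was in 16.1% of 32851 promoters, and it was in those of *Emcn* and *Tek* and in 1 of the 3 of *Egfl7*, but not in those of *Kdr*, *Flt1*, *Ehd3*, *Sema3g*, or *Vegfa*. The longer TRE-type MARE, which holds this core, was in none of them and in 0.00304% of all promoters. The promoters of *Kdr*, and of *Tek* and *Emcn*, whose levels overlapped, are shown 5′ to 3′ with the core in capitals. *Kdr* was called lower with all 8 mice but in 0 of the 8 fits without 1 mouse. A match is not evidence of binding, and its absence describes these windows only. They are chr5:75978456-75978705 on the minus strand for *Kdr*, and chr4:94739039-94739288 and chr3:137340828-137341077 on the plus strand for *Tek* and *Emcn*.
*Kdr* promoter: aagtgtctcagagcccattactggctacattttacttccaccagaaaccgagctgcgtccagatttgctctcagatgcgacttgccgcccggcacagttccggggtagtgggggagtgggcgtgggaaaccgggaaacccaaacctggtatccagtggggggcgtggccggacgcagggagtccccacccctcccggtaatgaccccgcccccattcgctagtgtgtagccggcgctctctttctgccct
*Tek* promoter: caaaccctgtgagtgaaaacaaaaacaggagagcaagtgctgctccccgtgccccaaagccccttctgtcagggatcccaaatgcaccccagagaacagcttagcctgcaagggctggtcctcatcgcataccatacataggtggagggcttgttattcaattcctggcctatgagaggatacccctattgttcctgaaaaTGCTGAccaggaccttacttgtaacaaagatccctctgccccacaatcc
*Emcn* promoter: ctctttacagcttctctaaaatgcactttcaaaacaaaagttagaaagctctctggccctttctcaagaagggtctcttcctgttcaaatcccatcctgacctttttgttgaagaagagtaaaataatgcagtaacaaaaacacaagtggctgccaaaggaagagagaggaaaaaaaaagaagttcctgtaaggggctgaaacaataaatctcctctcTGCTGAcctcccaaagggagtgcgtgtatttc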

How the data were processed

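RNA had been depleted of ribosomal RNA, made into libraries with a directional kit, and sequenced as pairs of 36-base reads. The deposited values are whole-number counts, which the authors made, per the file headers, with featureCounts 2.0.1 from exons grouped by gene name (Ensembl, GRCm38) and did not normalize. The submitters' processing notes name Subread 2.0.2 and edgeR 3.36.0. The aligner is not given in the sources used here. Both reads of a pair were counted, without regard to strand, and reads that fell on more than 1 gene were dropped, so antisense partners cannot be told apart and *Egfl7* is the member most open to lost reads. The study's methods describe another route (CLC Genomics Workbench with a quantile method), which was not repeated.

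Counts were filtered with filterByExpr, scaled by TMM, and compared without covariates by edgeR's robust quasi-likelihood test (edgeR 4.0.16, limma 3.58.1, R 4.3.3), with Benjamini-Hochberg adjustment over 20149 genes and calls at 0.05. Totals of 16649129 to 22990257 counts gave each of the 10 genes at least 461 counts per mouse, and intervals rest on the spread between mice, with a biological coefficient of variation of 0.203. Each mouse was 1 replicate, and no pair of libraries within a genotype agreed within sampling noise. CPM per kb used the length in the file, and log2 CPM a prior count of 2. *Xist* entered as log2 CPM, and mice with more than 1000 *Xist* counts were called high. Other settings were DESeq2 1.42.0, limma-trend after quantile normalization, RLE or upper-quartile factors, the exact test of edgeR (genes of 5 or more counts), other filters, the replicate block, *Xist* as a covariate, mice with high *Xist*, counts without mitochondrial and ribosomal RNA genes, an adjusted *P* under 0.01, and each mouse left out. The test of the *Xist* coefficient was added after seeing the data. Named were *Maf*, the 10 genes, genes called in any list, ligand and receptor genes of the VEGF, angiopoietin, and Notch lists, and the 8 genes most like the members; other names were chosen after their values were seen. The members and the lists were chosen with earlier results of these data known. Python 3.11.15 and matplotlib 3.10.9 made the figures.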

Additional observations from a re-analysis of the deposited data

Results flagged for a closer look

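In 24 sets of 4 values (12 genes, namely the 10 endothelial genes, *Vegfa*, and *Maf*, in each genotype), 3 had 1 mouse far from the other 3, where chance gives about 1.2. *Pecam1* was involved in both genotypes. In control mice, mouse 1 (82.4 CPM) was separated from the next mouse (72.0 CPM) by 0.899 of the range, and in knockout mice, mouse 4 (79.4 CPM) was separated from the next (63.8 CPM) by 0.905 of the range. *Kdr* in control mouse 3 (120.5 CPM) was separated from the next mouse (107 CPM) by 0.863 of the range, and without that mouse its log2 fold change was −0.32 and its adjusted *P* in edgeR's test 0.138.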

How the results depend on the processing

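The number of the 10 genes called moved between 0 and 2. It was 0 with upper-quartile factors, with quantile normalization and limma-trend, with edgeR's exact test, at an adjusted *P* under 0.01, and without each of the 8 mice (0 to 0), and it was 2 with *Xist* as a covariate. In the mice with high *Xist* it was 1, and the gene was *Sema3g*, since *Kdr* had an adjusted *P* of 0.0534 there. *Kdr* stayed lower in every setting tried and was called in 6 of the 11 settings that kept the threshold and left out no single mouse, with adjusted *P* from 0.00436 (DESeq2) to 0.193 (replicate block). Over all genes, the 436 calls became 886 with DESeq2, 1374 with *Xist* as a covariate, 789 in the mice with high *Xist*, 180 at an adjusted *P* under 0.01, and 239 to 452 without single mice, with 239, 256, and 285 without knockout mice 3 and 2 and control mouse 3. Fewer mice and a stricter threshold account for part of this by construction, and otherwise the cause was not tested.

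With the replicate block, 0 of the 10 genes and 129 genes in all were called. Deviations of same-numbered mice had correlations of −0.37, 0.15, −0.11, and −0.33, and only knockout mouse 2 correlated best with its own number. Because same-numbered mice also differed in *Xist*, these values cannot decide whether the numbers pair the mice.

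Signs changed for *Cdh5* and *Tek*, which were near 0, and for *Plvap*, which was at −0.14 with all mice. *Cdh5* was at 0.0045 with upper-quartile factors, 0.014 with quantile normalization and limma-trend together, and −0.099 to 0.00066 without single mice. *Tek* was at −0.025 to 0.16 without single mice, and *Plvap* at 0.0011 in the mice with high *Xist*. The median log2 fold change of the 10 genes stayed between −0.21 and −0.066. Of 200 comparisons of single members with their value under the design, 179 kept sign and side of the threshold. *Maf* stayed lower throughout but missed the threshold in the mice with high *Xist* (adjusted *P* = 0.108), with the replicate block (0.0516), and at 0.01. The intervals rest on 4 mice per genotype, and no limit of detection was computed.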
